A study of Drosophila melanogaster with 12 samples.

Results

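The regions bound by the Hox protein Ultrabithorax (Ubx) in Drosophila haltere discs were unevenly spaced, and 591 of the 2020 regions considered (29.3%) lay in 84 dense chains. A chain was chosen by position alone, as a run of 5 or more successive regions of the deposited consensus list with gaps of at most 10000 bp between the end of a region and the start of the next. The consensus list held 2171 regions in all. Of these, 35 on the Y chromosome, on chromosome 4 and on unplaced scaffolds, and 116 in the stretch of 111 tandem histone genes on arm 2L (21416953 to 21541681), were not used. The other 1429 regions lay in shorter runs or alone, 562 of them as single regions, and are the set against which the chain regions are described. Since the positions chose the members, the number, length and spacing of the chains are descriptions and carry no test.

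Hox proteins are homeodomain transcription factors that give body segments their identity along the head to tail axis, and they bind short AT-rich motifs, often together with cofactors such as Extradenticle and Homothorax. Ubx is expressed across the haltere disc, where it turns the development of a flight appendage into that of a small balancing organ. Many developmental genes in flies carry several separate enhancers spread over long introns or intergenic stretches, so that a factor acting on such a gene can bind at several places in 1 locus.

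The series used chromatin immunoprecipitation followed by sequencing (ChIP-seq) in wild-type Canton S animals, taken at the wandering stage of the third larval instar. Its 12 samples fall into 4 groups of 3 replicates: Ubx ChIP from haltere discs, Ubx ChIP from wing discs, and the input chromatin of each disc. The antibody was polyclonal and was raised against the N-terminal part of Ubx, and the replicates are described as independent biological ones. The 3 haltere disc ChIP lists and their consensus were used, and the other 9 samples were not analysed here. ChIP measures no transcript, so the disc label could not be checked against marker genes. A disc is made of several cell populations, and occupancy in a few cells cannot be told apart from weak occupancy in many.

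The deposited lists held 2869 peaks in haltere replicate 1, 2361 in replicate 2 and 3859 in replicate 3. They give no read counts, so depth is unknown. A consensus region is a stretch covered by the lists of at least 2 of the 3 libraries. Replicate 3 stood apart from the others in the number of peaks: its list overlapped 97.6% of chain regions and 96.3% of other regions, replicate 2 overlapped 81.7% and 78.7%, and replicate 1 overlapped 74.5% and 66.4%. Rebuilding the chains from the regions shared by the remaining pair of libraries gave 51 chains without replicate 1, 41 without replicate 2 and 26 without replicate 3. The fold enrichment of a peak is the value of the authors' peak caller. It serves below only as a description of single peaks and to order the peaks of the same list. Below, the strongest region of a chain is chosen only among its regions in all 3 libraries. It is the one with the highest within-list percentile of fold, averaged over the libraries. A region in only 2 libraries can have a higher mean percentile and is not called strongest. All coordinates are on the BDGP6 build of the files, and gene extents come from a RefSeq table of Release 6. The table gives neither strand nor exons, so that exons, introns and untranslated regions are not distinguished. Before, after and beyond the end of a gene are therefore meant by coordinate, not by the direction of transcription.

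The 84 chains had a median span of 15932.5 bp (quartiles 10084 and 22743) and ranged between 2615 and 60950 bp. Together they spanned 1478430 bp, of which the bound regions took 167352 bp (11.3%). The median chain held 6 regions and 4.24 regions per 10 kb, with a range of 1.70 to 19.1 per 10 kb. Of the 84 chains, 28 had 5 regions, 17 had 6, 16 had 7 and 23 had 8 or more, and the largest held 14. Within chains the 507 gaps had a median of 1408 bp, and 212 of them (41.8%) were under 1000 bp while 95 were over 5000 bp. In 30 of the gaps a single peak of some library ran across the gap, so that not every region of a chain is a separate summit: replicate 3 had 18 such peaks, replicate 1 had 9 and replicate 2 had 3. Chain regions were 238 bp wide at the median, against 194 bp for the other regions.

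**Figure D1:**
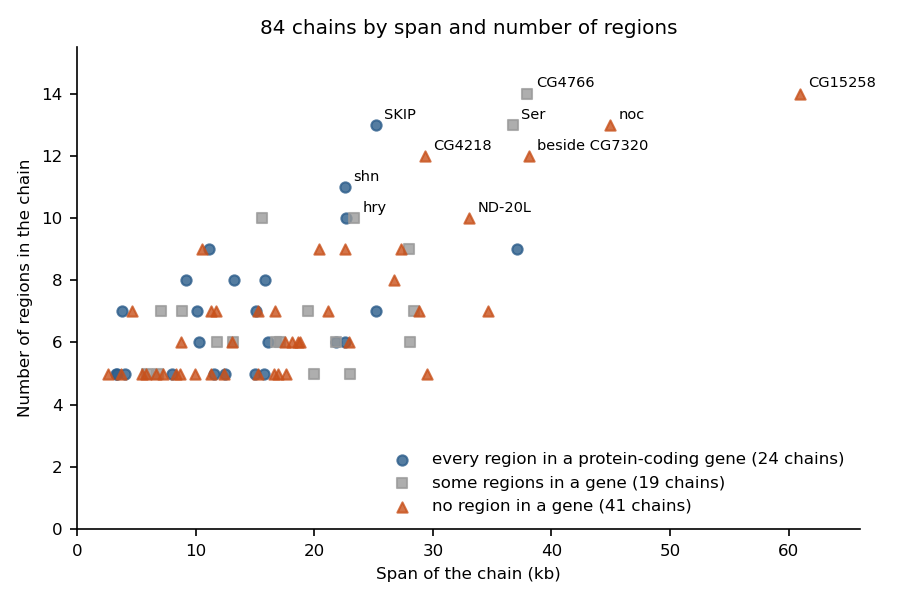
Span of each chain in kb on the horizontal axis and its number of regions on the vertical axis. Each point is 1 of the 84 chains, marked by whether every region (24 chains), some regions (19) or no region (41) lay in a protein-coding gene; the labelled points are the 10 chains with the most regions, of which the 2 with 14 regions lie on 2L and X.

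All 84 chains held at least 1 region found in all 3 libraries. Of the chain regions, 318 of 591 (53.8%, 95% Wilson interval 49.8 to 57.8) were found in all 3, against 592 of 1429 other regions (41.4%, 38.9 to 44.0); over all 2020 regions the share was 45.0%. The difference was 12.4 percentage points (7.60 to 17.1). By the number of regions in the run, the share was 36.1% for single regions, 39.2% for pairs, 49.3% for runs of 3 to 4 and 53.8% for chains. Runs of 4, which just missed the rule, did not have a lower share than the chains (54.7%). With the regions of the histone stretch kept, it was 4.54 points. In 45 chains over 50% of the regions were in all 3 libraries, in 9 chains exactly 1 region was, and in 2 chains every region was: the chain of 5 beside elB on 2L (14410358 to 14426924) and the chain of 5 inside olf413 on 3L (22176623 to 22191623). Such intervals cover counting error only, and neighbouring regions are not independent observations.

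The 48 runs of 4 regions, which just missed the rule, had a median span of 9255 bp, and 105 of their 192 regions (54.7%) were in all 3 libraries. The 28 chains of 5 had a median span of 9320 bp, and 70 of their 140 regions (50%) were in all 3. The widest gaps inside chains measured 9998 bp (before 27215471 on 3R, in the Ser chain), 9964 bp (before 633537 on 2L) and 9950 bp (before 14490307 on 2L, in the noc chain). The narrowest gaps left outside measured 10016 bp (before 14471603 on 2L), 10021 bp (before 19225905 on 2L) and 10029 bp (before 13251655 on X).

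The spans of the chains overlapped 77 of the 13842 protein-coding genes on the 5 arms (0.556%). Of the 220 genes on 23 lists of patterning, signalling and marker genes that lie on these arms, 15 (6.82%) were overlapped. A further 18 listed genes (8.18%) were the nearest gene on a side of a chain without being overlapped, against 151 of all genes (1.09%). With chains rebuilt without replicate 1, 2 or 3, the listed genes overlapped numbered 13, 9 and 5. In all, 14 chains overlapped a listed gene and 32 overlapped or were flanked by one. The lists were drawn up with results of these data known, long genes are overlapped more readily than short ones, and the counts are descriptions.

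The largest chain lay on 2L (15353552 to 15414501), spanned 60950 bp with 14 regions, and overlapped only CG15258 and 5 noncoding genes. Its nearest protein-coding genes were esg, 17414 bp before it, and CG44869, 3428 bp after it, with wor beyond that gene; esg and wor encode zinc finger repressors of the Snail family. Only 6 of the 14 regions were in all 3 libraries, and the strongest of these (15413595 to 15414501) had folds of 6.08, 8.43 and 9.96 in replicates 1, 2 and 3. No region of this chain overlapped a protein-coding gene.

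The other chain of 14 regions lay on X (5992830 to 6030805), spanned 37976 bp and overlapped CG4766 and mab-21. It was the most uneven of the 10 largest between libraries: all 14 regions were overlapped by replicates 2 and 3, but 5 of them by replicate 1. The strongest region (5996942 to 5997351) had folds of 12.1, 11.7 and 16.2 in replicates 1, 2 and 3. Here the number of regions therefore rested on replicates 2 and 3.

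A group of chains lay around elB and noc on 2L, whose products are related zinc finger proteins of appendage and eye development. The chain around noc (14471603 to 14516551, 44949 bp) held 13 regions, 9 of them in all 3 libraries, and none overlapped noc itself. Its strongest region (14515165 to 14515645) had folds of 8.36, 9.22 and 14.2 in replicates 1, 2 and 3. The next chain began on the far side of CG33648 and overlapped CG4218 (14529027 to 14558329, 29303 bp); it held 12 regions, 7 of them in all 3. One of its regions (14531150 to 14531794) had the highest mean percentile of fold enrichment of all chain members, with folds of 12.8, 15.3 and 18.5. The chain of 5 beside elB started 809 bp from that gene and overlapped Pburs, which encodes a subunit of the hormone bursicon, and Cpr35B. Its strongest region (14422115 to 14422620) had folds of 4.56, 7.56 and 12.7.

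Among the other chains with the most regions, the chain over Ser on 3R (27185952 to 27222686, 36735 bp) held 13 regions, 7 in all 3 libraries. Ser encodes Serrate, a ligand of the Notch receptor that acts at the dorsoventral boundary of wing and haltere discs. Of its 13 regions 3 overlapped the gene, and the others lay between Ser and CG42813. Its strongest region (27194374 to 27194549) had folds of 5.92, 6.38 and 7.10 in replicates 1, 2 and 3. The SKIP chain on 3R (22175523 to 22200679, 25157 bp) also held 13 regions, 8 in all 3, but all of them lay within that gene. Its strongest region (22198728 to 22199438) had folds of 20.1, 11.1 and 11.4. So the Ser chain lay mostly outside its gene and the SKIP chain wholly inside.

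A chain of 12 regions on 3L (18205884 to 18243971, 38088 bp, 5 regions in all 3) overlapped no protein-coding gene and lay between CG7320 and CheA75a. Its strongest region (18240505 to 18240967) had folds of 9.26, 8.11 and 8.02 in replicates 1, 2 and 3. On the other side of CG7320 a chain of 6 (18186869 to 18195574) ended the stretch toward hid, which encodes an activator of apoptosis and lay 1228 bp away. The chain between Trc8 and Dr on 3R (29506131 to 29539178, 33048 bp, 10 regions, 6 in all 3) overlapped ND-20L, and its strongest region (29526508 to 29526769) had folds of 5.77, 6.77 and 7.88. Dr, a homeobox gene also called muscle segment homeobox, lay 17208 bp from it, and a chain of 5 followed 9157 bp after Dr (29574401 to 29585711). The chain beside hry, the bHLH repressor gene hairy, on 3L (8652626 to 8675961, 23336 bp) was the most even of the 10 largest between libraries, with 9 of 10 regions in all 3. Its strongest region (8668464 to 8668773) had folds of 6.13, 6.93 and 11.2, and 1 of the 10 regions overlapped the gene.

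**Figure D2:**
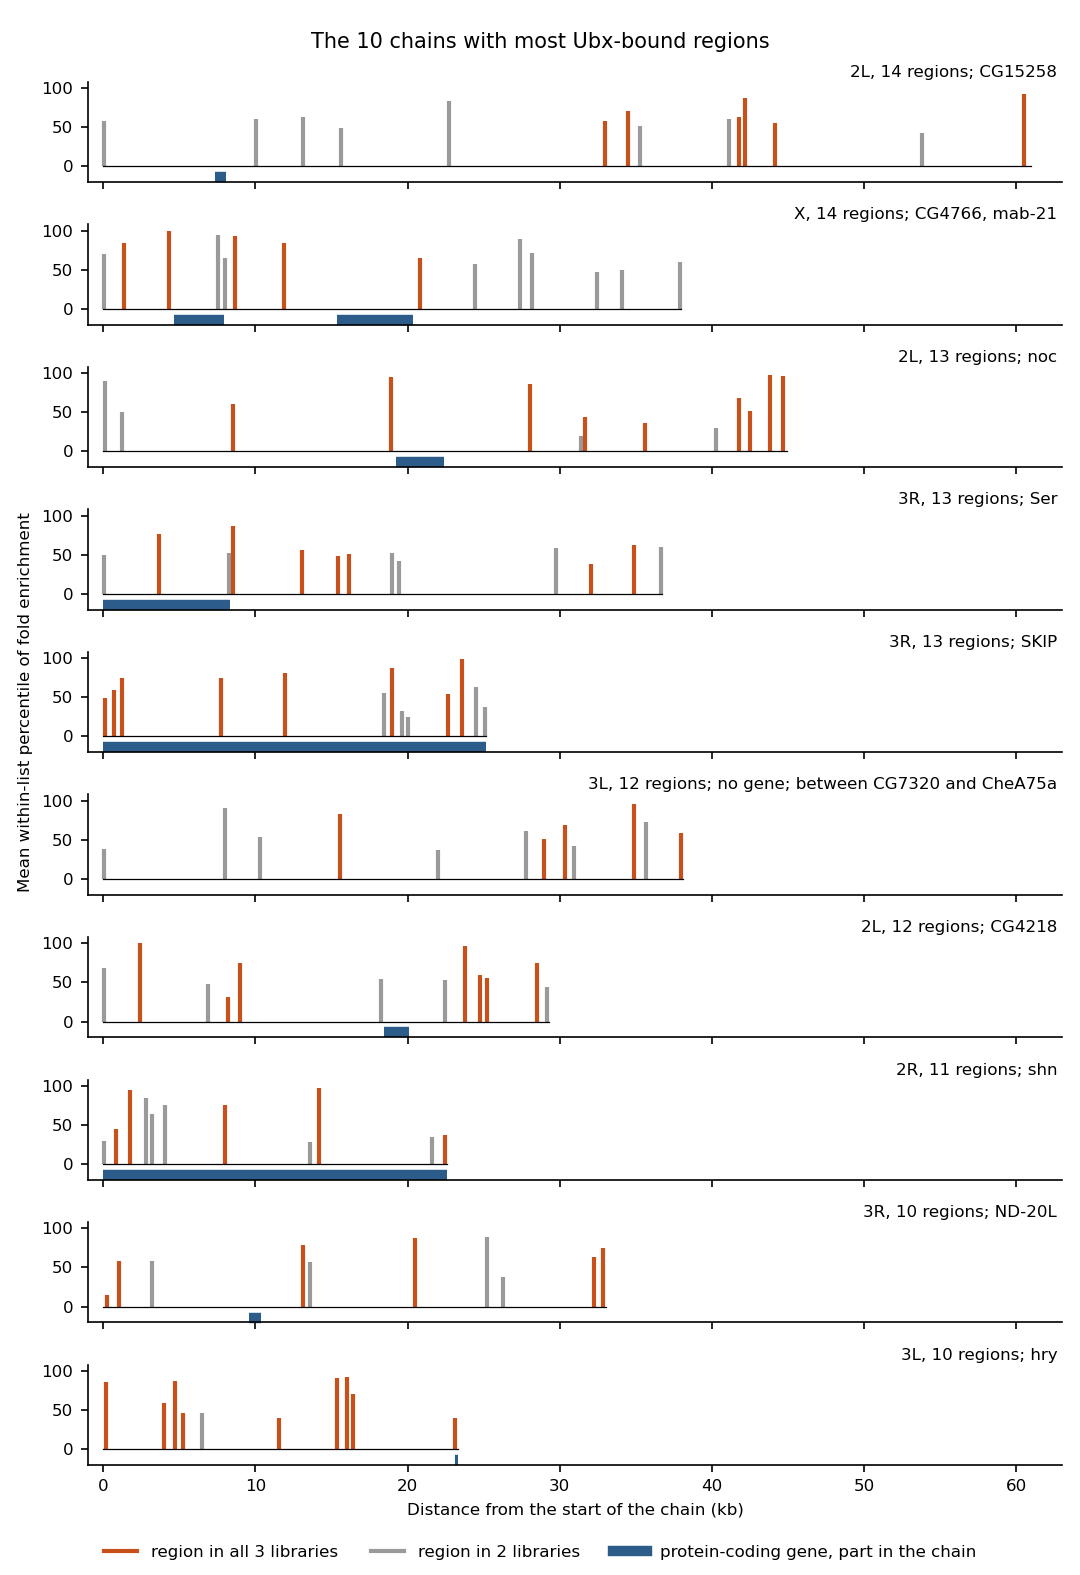
The 10 chains with the most regions, each drawn to scale from its own start in kb; the height of a line is the mean within-list percentile of fold enrichment of a region over the libraries that hold it. Lines are coloured by whether the region was in all 3 libraries or in 2, blocks under the axis are the parts of protein-coding genes within the chain, and only the SKIP and shn chains lie within a gene over their whole length.

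In the Dpp pathway, whose secreted BMP ligand patterns the disc along its anteroposterior axis, 2 of 15 listed genes were overlapped by a chain and 3 more were flanking genes. The gene of the type I receptor Thickveins, tkv, contained all 10 regions of a chain (2L, 5236715 to 5259396), 6 in all 3 libraries. The folds of its first region were 16.4, 5.07 and 6.25 in replicates 1, 2 and 3, and those of its last (5259030 to 5259396) were 6.66, 9.20 and 13.2. The end regions thus ranked differently between libraries. The gene shn, which encodes a zinc finger cofactor of Dpp signalling, contained all 11 regions of a chain on 2R (11181024 to 11203617), 5 in all 3. Its strongest region (11195009 to 11195372) had folds of 8.39, 12.1 and 11.0. Both chains lay wholly inside a pathway gene.

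The 3 flanking genes of the pathway were dpp, brk and dally. A chain of 5 (2L, 2482804 to 2488661) lay at Slh, 22981 bp from dpp, the ligand gene. Its strongest region in all 3 libraries (2482804 to 2483285) had folds of 4.35, 8.13 and 8.87 in replicates 1, 2 and 3. A region in replicates 2 and 3 only (2486746 to 2486945) had a higher mean percentile, 89.4 against 80.2. A chain of 7 on X (7292467 to 7307526) ended 413 bp before brk, which encodes the repressor Brinker, and all of it lay within the extent of CG1677. Only 1 of its 7 regions was in all 3 libraries, with folds of 12.0, 6.79 and 6.44. A chain of 7 on 3L (8821082 to 8825686) ended 1819 bp from dally, the gene of a glypican that binds Dpp. The mean percentile of fold enrichment over its regions was 42.0, below the median of 68.2 over the 84 chains, and the strongest region, at the end of the chain, had folds of 5.07, 3.97 and 5.31.

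In the Wnt pathway 3 of 14 listed genes were overlapped by a chain. The gene of the Wingless receptor Frizzled 2, fz2, contained all 8 regions of a chain on 3L (19159755 to 19173011), 4 in all 3 libraries. Its strongest region (19167604 to 19167991) had folds of 9.66, 9.64 and 11.9 in replicates 1, 2 and 3. The gene of the coreceptor Arrow, arr, contained all 5 regions of a chain on 2R (13464260 to 13476738), the strongest with folds of 4.12, 6.01 and 11.1. The chain at nkd, the gene of an inhibitor of Wingless signalling (3L, 19040852 to 19057625), had 3 of 6 regions in the gene and the others beyond its end. Its strongest region (19046712 to 19047183) had folds of 7.08, 10.6 and 8.34. The receptor gene thus held the most regions of the 3.

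In the Hedgehog pathway 2 of 8 listed genes were overlapped. The chain at ptc, the gene of the Hedgehog receptor (2R, 8636429 to 8658272), had 6 regions, of which 2 lay in the gene and 2 were in all 3 libraries. Its strongest region (8644136 to 8644330) had folds of 4.33, 5.24 and 9.19 in replicates 1, 2 and 3. The chain in boi, the gene of a Hedgehog coreceptor (X, 2452414 to 2468482), had 6 regions, all in the gene, and its strongest region had folds of 5.70, 6.22 and 8.78. The matrix gene trol, which encodes perlecan, lay 1978 bp after that chain. On 2R a chain of 6 (11538604 to 11561530) lay between the homeobox gene en, 10394 bp away, and tou. Its mean percentile was 47.9, and its 1 region in all 3 libraries had folds of 5.30, 4.73 and 3.36.

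In the Notch pathway 4 of 15 listed genes were overlapped, among them Ser, described above. Delta, the gene of the other ligand, had 4 of the 5 regions of a chain (3R, 19309128 to 19329125), and a second chain of 5 (19281244 to 19287024) lay before it, beyond CG44174. The strongest regions of these chains had folds of 4.85, 5.39 and 7.25, and of 5.15, 4.69 and 6.42, in replicates 1, 2 and 3. The chain in the Enhancer of split complex (3R, 26002286 to 26023457) held 7 regions, 6 in all 3 libraries. This complex is a cluster of related Notch target genes. The span overlapped E(spl)mbeta-HLH and E(spl)m3-HLH, which encode bHLH repressors, and E(spl)malpha-BFM, E(spl)m2-BFM and Kaz-m1, while every region lay between the genes. Its chain mean percentile of fold enrichment, 90.8, was the second highest of the 84. The widest of its regions (26002286 to 26003480) had folds of 6.15, 8.87 and 17.9, and the strongest by mean percentile (26008324 to 26008859) had folds of 9.16, 8.48 and 14.3. Reads from the related genes of the complex may not be fully separable, which was not tested.

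In the Fat and Hippo pathway, which couples growth to cell contacts, 2 of 12 listed genes were overlapped. The chain at ex, the gene of the upstream regulator Expanded (2L, 427207 to 442776), had 10 regions, 6 of them in the gene and 6 in all 3 libraries. Its strongest region (429957 to 430196) had folds of 7.81, 12.2 and 16.7 in replicates 1, 2 and 3. At ds, the gene of the cadherin Dachsous, a chain of 5 lay in the gene (2L, 669015 to 672275) with folds of 5.29, 7.67 and 8.97 at its strongest region. Another chain of 5 lay 4760 bp before ds (617652 to 635253), over CG2839 and a pair of lectin genes.

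In the EGF receptor and JAK/STAT pathways no listed gene was overlapped, and chains lay beside 2 genes of each. A chain of 7 (3L, 5851077 to 5867765) lay 5413 bp after vn, the gene of the EGF receptor ligand Vein, with folds of 5.41, 5.11 and 5.36 in replicates 1, 2 and 3 at its strongest region. A chain of 7 (3L, 3380131 to 3395366) lay 5787 bp before sty, the gene of the inhibitor Sprouty, and its strongest region had folds of 9.78, 6.45 and 9.70. S, the gene of Star, which helps to transport EGF receptor ligands, is on none of the lists and held a chain of 5 (2L, 1062615 to 1066620) with 1 region in all 3. A chain of 5 (X, 18256811 to 18273733) lay between the JAK/STAT ligand genes upd2 and upd3, 3500 bp from upd3. Its strongest region (18256811 to 18257403) had folds of 12.6, 7.64 and 9.74.

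Among the 8 Hox genes Ubx was overlapped by a chain. The Ubx chain (3R, 16678114 to 16703273) held 7 regions within the gene, 4 in all 3 libraries. The region from 16685439 to 16685908 had folds of 13.8, 10.01 and 15.4 in replicates 1, 2 and 3, and the last region (16702865 to 16703273) had 10.4, 9.07 and 10.8. The remaining 5 had folds of 3.49 to 8.04, and 3 of these 5 were absent from the list of replicate 1. The Hox gene Antp held 6 regions, all of them in all 3 libraries, but no more than 3 in a run. The cofactor gene hth held 12 regions and none in a chain: the largest run had 4, and the widest gap in the gene was 39996 bp. A large number of regions in a gene thus did not always go with a chain.

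None of the 49 other homeobox genes was overlapped, and 6 of them were the nearest gene on a side of a chain: Dr and en, described above, E5, ems, nub and pdm2. Around the neighbours E5 and ems on 3R lay chains of 7 (13845425 to 13856720), 5 (13913706 to 13922410) and 7 regions (13935297 to 13942339). The first lay 10625 bp before E5 and had folds of 5.95, 6.20 and 7.60 in replicates 1, 2 and 3 at its strongest region. The others lay 9086 and 30677 bp after ems. They differed in strength: the nearer had folds of 3.50, 3.66 and 4.68 at its strongest region and the farther 11.8, 10.2 and 13.6. A chain of 6 (2L, 12634995 to 12646820) lay between nub, a POU homeobox gene of wing identity, and its neighbour pdm2. It had 5 regions in the gene Ref2, and folds of 4.56, 5.72 and 8.29 at its strongest region in all 3 libraries. A region in replicates 2 and 3 only (12641133 to 12641332) had a higher mean percentile, 81.2 against 77.9. A chain of 7 (2L, 11378845 to 11407706) lay between salr and salm, zinc finger genes of wing vein patterning, with folds of 8.18, 7.01 and 13.5 at its strongest region (11382768 to 11383198).

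**Figure D3:**
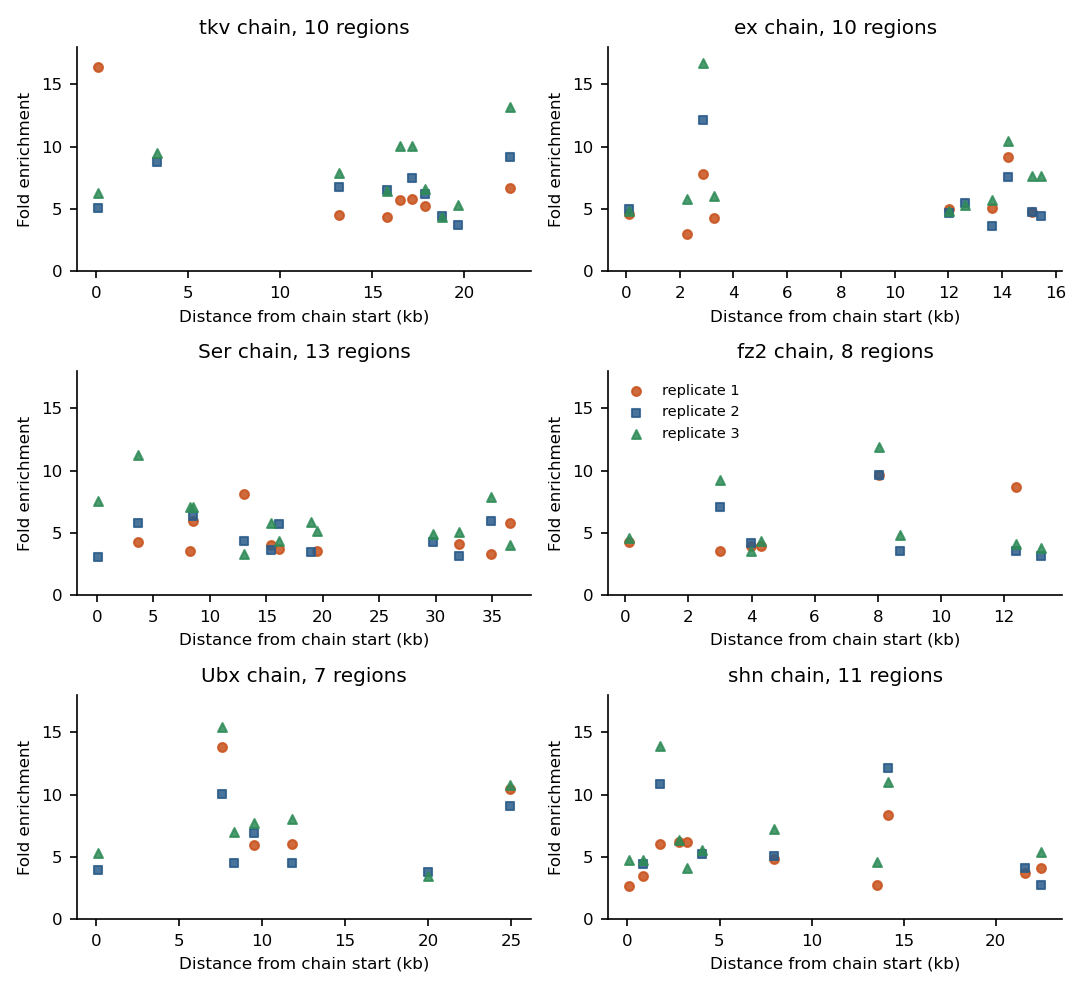
Fold enrichment given by the authors' peak caller for every region of 6 chains that overlap listed genes, against the distance of the region from the start of its chain in kb. Each point is the highest fold among the peaks of 1 haltere library that overlap the region, so a peak across several regions is drawn at each. A library with no point at a region had no peak there, and the highest values are 16.7 in replicate 3 at ex and 16.4 in replicate 1 at tkv.

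Of the 8 listed genes of the hinge and the proximal disc, Sox15 was overlapped and tsh and nub were flanking genes. Sox15, which encodes a transcription factor with an HMG box, contained the 7 regions of a dense chain of 3784 bp (2R, 14204535 to 14208318), with 3 in all 3 libraries. Its strongest region (14205905 to 14206514) had folds of 5.06, 5.94 and 7.93 in replicates 1, 2 and 3. Chains of 8 and 6 lay on either side of tsh, the gene of a zinc finger protein of proximal identity, and neither reached it. The chain of 8 (2L, 21796583 to 21823299) ended 5294 bp before tsh and had the lowest mean percentile of fold enrichment of all 84, at 31.8. The chain of 6 (21863743 to 21882487) began 26732 bp after the gene.

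No gene was overlapped by a chain or was a nearest neighbour of one among the 8 T-box, 15 leg, 5 notum, 10 proneural and 12 ecdysone response genes, or among the 2 Hox cofactor genes. The same held for the markers of cells that a dissected disc can carry along: 7 of myoblasts and mesoderm, 3 of trachea, 4 of blood cells and 3 of neurons and glia. Over all protein-coding genes 0.556% were overlapped and 1.09% were flanking only, so lists this short could hold none at that share. Regions outside chains were present in some of these genes, with 6 in bi, 6 in Eip75B, 5 in Eip74EF and 5 in twi, and absent from others. Of the 5 selectors of wing identity only nub was a flanking gene. Of the 10 matrix genes only trol was.

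Outside the lists, several long genes held whole chains; those named from here on were chosen after their values were seen. The gene with the most regions was sbb, which encodes the nuclear protein Scribbler: 16 of its 20 regions lay in a pair of chains of 8 (2R, 18304259 to 18313455 and 18329331 to 18345126), each with 7 regions in all 3 libraries. Their strongest regions had folds of 9.90, 8.57 and 15.8, and of 8.92, 7.48 and 7.59, in replicates 1, 2 and 3. The chain mean percentiles of 86.7 and 89.7 place both among the stronger chains. Tet, the gene of a dioxygenase of methylated nucleotides, held 9 regions in a chain of 37124 bp (3L, 2801503 to 2838626). Its region from 2834394 to 2834969 had folds of 25.6, 11.1 and 9.50, the first of which was the highest fold of any chain region in any library.

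Genes of chromatin proteins were among the others. osa, which encodes a subunit of the Brahma remodelling complex, held all 9 regions of a chain (3R, 17700096 to 17711177) with 6 in all 3 libraries and folds of 6.34, 8.25 and 11.7 in replicates 1, 2 and 3 at its strongest region. tara, the gene Taranis, held 7 (3R, 16231295 to 16241428), with folds of 8.99, 7.40 and 8.23. tou, the gene Toutatis, held 6 (2R, 11597589 to 11607839), with 5 in all 3. The chain with the highest mean percentile, 93.7, was the chain of 5 in ph-p, the gene of the Polycomb protein Polyhomeotic (X, 2134845 to 2138206), where the strongest region had folds of 9.41, 9.69 and 10.2. ph-p has a near-identical tandem copy, ph-d, 11559 bp from the chain, so reads of the pair may have been divided or left out by the mapping, and its values are uncertain. At corto a chain of 6 (3R, 5080444 to 5097501) had 1 region in the gene. No list of chromatin genes was used, so these genes are named singly.

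Other transcription factor genes with chains inside them were grn, a GATA factor gene, with 6 of 7 regions in the gene (3R, 8153729 to 8182130), and grh, the gene Grainyhead, with 5 of 5 (2R, 17802030 to 17813574). Chains wholly within the genes were also found in CG42238 (2L, 21008983 to 21030789, 6 regions) and olf413. In esn (2R, 7086094 to 7094907) 6 of 7 regions lay in the gene, and in pwn (2R, 7285857 to 7308838) 4 of 5. All 5 regions of a chain lay in siz, a gene of an Arf exchange factor (3L, 21052161 to 21067906), and all 5 of another in mew, the gene of an integrin alpha subunit (X, 13233600 to 13241625). The chain over CkIalpha, a casein kinase gene, and Tis11, the gene of an RNA-binding zinc finger protein (X, 12654515 to 12677085), had 5 of 6 regions in Tis11. In robo2, a gene of a Slit receptor, 4 of 9 regions lay in the gene (2L, 1404969 to 1432936). In Samuel 4 of 6 did (2L, 11046551 to 11074634) and in tey 2 of 7 (3L, 19662189 to 19681617).

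Chains that overlapped short genes without a region in them included those over Rh5, a rhodopsin gene (2L, 12003754 to 12014266, 9 regions), over CG33796 and CG33795 (3L, 16168510 to 16195816, 9 regions) and over CG43335 and CG43336 (3R, 15633846 to 15652500, 6 regions). In the chain at CG33796 a region (16189012 to 16189483) had folds of 21.4, 9.78 and 13.5 in replicates 1, 2 and 3. It was followed by a chain of 5 at CG13073 (3L, 16209481 to 16216326), whose last region had 8.30, 15.3 and 19.6. Chains of 7 over CG12078 and CG43389 (3L, 3241257 to 3252934), of 5 over CG30114 (2R, 18196434 to 18225909) and of 5 over yip3 and RpL22-like (2R, 23237876 to 23253134) were of this kind as well. The first of them also overlapped the microRNA gene mir-282. A chain of 6 (3L, 10759927 to 10773029) had 2 regions in CG43245, and a chain of 5 preceded it (10737272 to 10743951).

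The remaining chains overlapped no protein-coding gene. On 2L a chain of 5 (18456128 to 18468489) overlapped the noncoding gene lncRNA:let7C, the precursor of the let-7 complex of microRNAs, with folds of 6.12, 3.54 and 6.62 in replicates 1, 2 and 3 at its strongest region, and another of 5 (11965525 to 11969195) lay between CG16964 and CG16965. On 3L lay chains of 9 beside Reg-2 (608067 to 628433), of 5 beside hng3 (758319 to 760933), of 5 beside CG13300 (6357006 to 6364201) and of 7 beside CG14147 (10928590 to 10963205). The chain beside hng3, with emc, an HLH regulator gene, beyond it, was the shortest, at 2615 bp. A chain of 9 beside CG6163 (11366635 to 11389191) had a chain mean percentile of 80.2 and folds of 7.83, 7.95 and 15.6 at its strongest region. Chains of 6 lay on either side of Prx1, and the second (15209487 to 15227596) lay 8023 bp from Tollo, a gene of the Toll receptor family. The first of them spanned 15174557 to 15192108. Chains of 5 lay beside comm, a regulator of axon guidance (15753786 to 15763720), and 28733 bp from Ten-m, a teneurin gene (22436596 to 22444952). On 3R a chain of 5 lay beside laf (4879843 to 4885311) and a chain of 6 lay 6665 bp before heca, the gene headcase (30258192 to 30271267).

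Chain regions lay outside genes more often than the other regions. Of the chain regions 55.7% (95% Wilson interval 51.6 to 59.6) lay outside every protein-coding gene, over 1 kb away from any gene end, against 29.7% (27.4 to 32.1) of the other regions. Within a gene and more than 1 kb from its ends lay 35.0% of chain regions and 52.2% of other regions. Within 1 kb of an end of a gene lay 9.31% and 18.1%. The median distance to the nearest gene end was 7178 bp for chain regions and 4541 bp for the others. No test was made, since neighbouring regions share their surroundings.

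**Figure D4:**
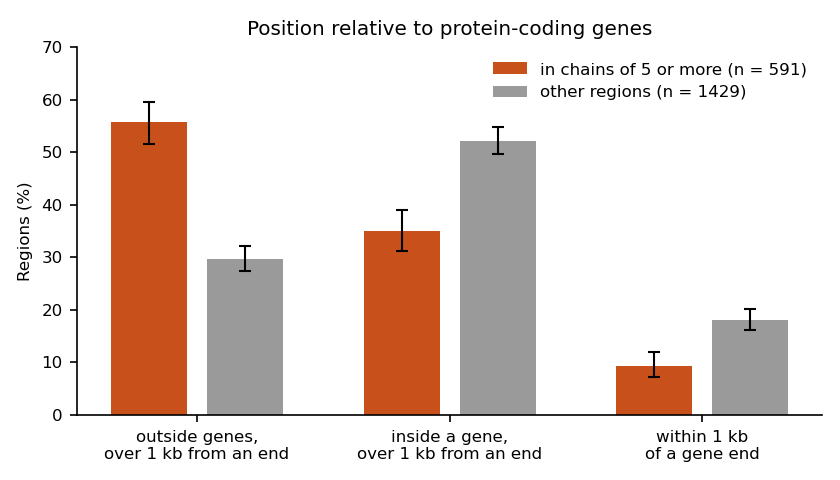
Share of regions (percent) at 3 kinds of position relative to protein-coding genes, for the 591 regions in chains and the 1429 other regions. Bars are shares with 95% Wilson intervals; chain regions were at 55.7% outside genes, against 29.7% of the other regions.

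Room for a run of regions moved with this position. For chain regions outside genes, the stretch between the flanking protein-coding genes had a median of 27032 bp, and for other regions outside genes it had 20237 bp. Over all 10355 stretches between genes the median was 469 bp. The medians for regions are taken over regions and the last over stretches, so they are not like for like. The genes that held 5 or more chain regions, 27 in number, had a median length of 41553 bp. Genes with any chain region had a median length of 32305 bp. Genes with consensus regions but no chain region, 528 in number, had a median length of 22097 bp, and all protein-coding genes had 2151 bp. The part of gene length and of the room between genes in the making of a chain was not tested. Of the 84 chains, 26 overlapped no protein-coding gene, 43 overlapped 1 and 15 overlapped 2 or more, and 23 spans lay within 1 gene. Of the 77 overlapped genes, 44 held a chain region.

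By arm, 36.0% of the regions on 2L lay in chains (151 of 419) and 36.1% of those on 3L (178 of 493). The share was 27.5% on 3R (130 of 473), 20.9% on 2R (84 of 402) and 20.6% on X (48 of 233). These shares are set by the positions that chose the chains and carry no test. Chains were themselves close in places: 14 pairs of neighbouring chains lay within 50000 bp, and the nearest were 10309 bp apart.

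Whether chain regions are found again in a library that did not take part in choosing them was examined by holding out each library in turn. Regions were made from the overlap of the 2 remaining lists, joined into chains by the same rule and looked up in the list held out. In replicate 1, 69.6% of chain regions (238 of 342) and 56.2% of other regions (679 of 1208) were found. In replicate 2, 77.4% (202 of 261) and 67.0% (720 of 1075) were found. In replicate 3, 96.8% (152 of 157) and 92.5% (765 of 827) were found. Chain regions were thus found more often in 3 of 3 libraries, by 13.4, 10.4 and 4.31 percentage points (mean 9.37 ± 4.62, SD, n = 3). Flipping the signs of the 3 differences in all ways (exact permutation test, two-sided) gave p = 0.25, the smallest that 3 libraries allow, so the design cannot reach 0.05.

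The recovered share went up with the number of regions in the run in each held-out library. In replicate 1 it was 52.8% for single regions, 53.5% for pairs, 62.6% for runs of 3 to 4 and 69.6% for chains. In replicate 2 these shares were 60.5%, 69.2%, 74.2% and 77.4%. In replicate 3 they were 91.2%, 91.6%, 96.0% and 96.8%. Chain regions also had stronger peaks, and recovery by strength alone was not examined. Averaged over quartiles of fold percentile in the 2 libraries used, an alternative chosen after seeing the data, the differences were 8.22, 5.63 and 3.30 points (mean 5.72).

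**Figure D5:**
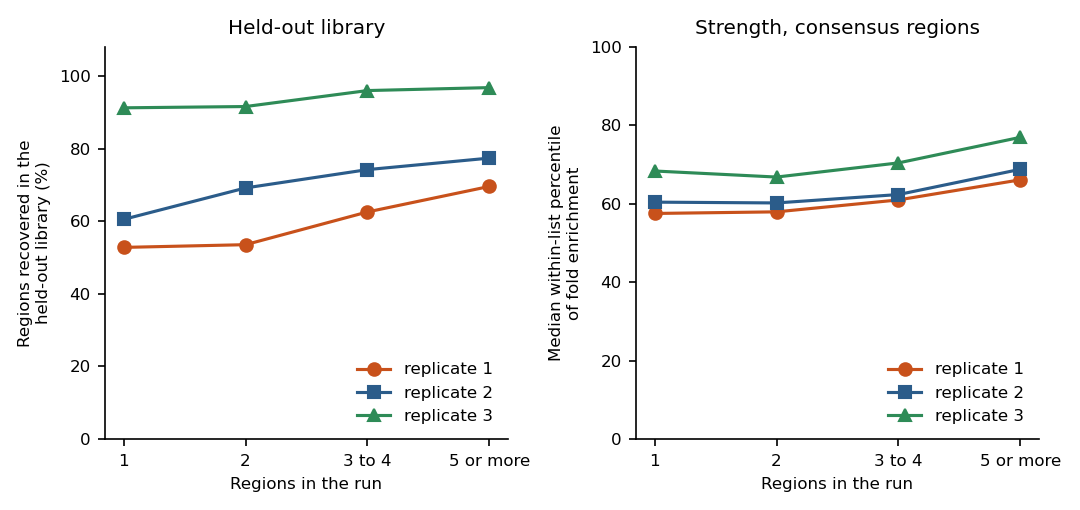
Left, percent of regions found in the held-out library, by the number of regions in the run; right, median within-list percentile of fold enrichment by run size over the consensus regions. Each line is 1 haltere library, and in each the value for runs of 5 or more is above that for single regions (69.6, 77.4 and 96.8% against 52.8, 60.5 and 91.2% on the left).

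Fold enrichment took no part in choosing the chains. Peaks at chain regions had a median fold of 4.90 in replicate 1, 4.73 in replicate 2 and 5.73 in replicate 3, and peaks at other regions had 4.62, 4.41 and 5.17. As percentiles within each list, the medians were 65.5, 68.8 and 76.7 at chain regions and 58.3, 61.1 and 67.9 at other regions. The difference was positive in 3 of 3 libraries and averaged 7.88 ± 0.846 percentile points (SD, n = 3; exact two-sided sign-flip permutation test, p = 0.25, the smallest possible). The peaks were also wider: 252, 267.5 and 343 bp at chain regions and 219, 228 and 277 bp at other regions in replicates 1, 2 and 3. Among regions in all 3 libraries the difference was 9.55, 4.04 and 1.78 percentile points (mean 5.12). Of the 164 regions above the 90th mean percentile, 67 (40.9%) lay in chains, against 29.3% of all regions.

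Strong and weak regions stood side by side within chains. The range of mean percentile within a chain had a median of 51.9 points (23.0 to 93.8), and 39 chains held a region above the 90th percentile. Successive regions of a chain showed almost no rank relation in strength (Spearman rho 0.03 over 507 pairs of neighbours, a description across regions). The median percentile of a chain was related between libraries, with rho of 0.33 between replicates 1 and 2, 0.25 between 1 and 3 and 0.53 between 2 and 3, over 84 chains that share genome and peak caller. The chain mean percentile ranged between 31.8 and 93.7, with a median of 68.2.

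Counted by its own peaks, each library held part of every chain. This follows from the region in all 3 libraries that every chain held. The consensus was made from these same lists, so the counts of own peaks are descriptions. Replicates 1 and 2 each had 5 or more of their own peaks in 57 chains and replicate 3 in 79, and 44 chains had that many in all 3. The fewest own peaks in any chain were 2, 3 and 4 in replicates 1, 2 and 3. Chains built from a single list numbered 92, 74 and 175, and they met 58, 58 and 81 of the 84 consensus chains. In the other direction, 63.04%, 78.38% and 45.14% of the single-list chains of replicates 1, 2 and 3 met a consensus chain. Most chains of replicate 3 alone thus met none. The peaks in the histone stretch, 11 in replicate 1, 115 in replicate 2 and 120 in replicate 3, had an unusual profile. Their −log10 q percentiles were above their fold percentiles by 91.2, 69.3 and 63.8 points in replicates 1, 2 and 3. Over the 84 chains the same difference of medians lay between −9.62 and 23.9 points in replicate 1, between −13.98 and 12.3 in replicate 2 and between −13.7 and 18.6 in replicate 3. In each library the histone stretch thus lay above every chain.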

How the data were processed

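Peaks of 3 haltere disc Ubx ChIP libraries and their consensus were used. Per the submitters' processing notes, reads were handled with Trimmomatic 0.36, BWA and MACS2 on BDGP6; the options and the control used for peak calling are not given in the sources used here. Each deposited list gives peak positions, a score, the fold enrichment at the summit, and −log10 p-values and q-values, all as the authors' peak caller wrote them. In all peaks the deposited score was the −log10 q-value times 10, cut to a whole number. No q-value exceeds 0.01, and all 2171 consensus regions equal the stretches covered by at least 2 lists. Depth is unknown. The exact sign-flip permutation test gives p = 0.25 whenever the differences of the 3 libraries share a sign, whatever their spread. The libraries are also not independent units in these tests. For recovery, each library helps to choose the chains looked up in the others. For fold percentiles, all 3 are compared over the same chains, which were made from their own lists.

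Regions on the 5 arms outside the histone stretch were joined over gaps of at most 10000 bp, and runs of 5 or more were kept. A region was in a library when they shared at least 1 bp. Percentiles of fold were taken within a list, shares carry 95% Wilson intervals, and exact sign-flip permutation tests ran over libraries (Python 3.11.15, numpy 2.4.6, pandas 2.3.3, scipy 1.17.1). The joining into chains, the overlap of regions with a list and the forming of shared stretches were checked on simulated regions. The percentiles, intervals, permutation tests and gene overlaps were not checked in this way. Gene extents came from a RefSeq table of Release 6; of the listed genes 3 were matched under another symbol and 7 had no gene on the 5 arms. Every chain is given by position and overlapped genes, the 10 with most regions in full. The members and lists were chosen with earlier results of these data known. Alternatives were other gap limits and chain sizes, joined or narrow regions, the histone stretch kept, the upper 50% of each list by fold, stricter overlap, other distances to genes, and each library left out. A search for promoter motifs was not run, because no sequence was used here. Wing disc and input samples were not analysed here.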

Additional observations from a re-analysis of the deposited data

Results flagged for a closer look

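The rule was confined to the 5 large arms, and a signal of the same kind appeared outside them. Of the 21 consensus regions on the Y chromosome, 7 formed a run that would have met the rule (Y, 912851 to 934245, 21395 bp). Of these, 2 were in all 3 libraries; replicates 2 and 3 overlapped all 7 and replicate 1 overlapped 2. The largest run on chromosome 4 had 4 regions.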

How the results depend on the processing

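The main limits are the unknown depth, the 3 libraries and a list of regions made from the same libraries. The number of chains, 84, became 52 with a 5000 bp gap, 132 for runs of 4 or more and 23 for runs of 8 or more. It became 26 with the upper 50% of each list by fold, and 58 with regions within 500 bp joined first. A 20000 bp gap gave 107 chains with 882 regions, and leaving out a replicate gave 26 to 51 chains. The number of chain regions, 591, became 324 with the 5000 bp gap, 237 for runs of 8 or more, 368 with regions within 500 bp joined first, 161 with the upper 50%, and 157 to 342 without a replicate. The share in all 3 libraries, 53.8%, was 58.6% for runs of 8 or more, 60.1% with joined regions, 46.0% with the histone stretch kept and 47.2% where 50% of a region had to be covered; it cannot be formed without a replicate. Its difference from other regions was 4.54 points with the histone stretch kept, and 10.4 to 15.4 points in the other settings. Listed genes overlapped, 15, became 7 with the 5000 bp gap, 36 with 20000 bp, 24 for runs of 4 or more, 5 for runs of 8 or more, 7 with the upper 50%, and 5 to 13 without a replicate. The share within a given distance of a gene end was 5.75% at 500 bp and 17.9% at 2000 bp for chain regions, against 11.3% and 30.2% for other regions, and that outside genes beyond 2000 bp was 48.9%, against 24.7%. Of the settings that leave out a replicate, the lowest counts of chains, chain regions and listed genes came without replicate 3. Beyond the fewer or more regions that a setting leaves, the cause was not tested. The recovery difference stayed between 5.72 and 11.9 points and the percentile difference between 5.12 and 8.59 in the 9 alternatives tried for each. No paired analysis was possible because a single group of libraries was used, so that replicate numbers pair no samples between groups; the sign-flip tests take chain minus other regions within each library.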
